A study of Mus musculus with 2 samples.

Results

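The B-type ephrins and their Eph receptors were examined in the developing mouse face, in facial prominence tissue of embryonic day 13.5. The group comprises the 3 ephrin-B ligand genes Efnb1, Efnb2 and Efnb3, the 5 EphB receptor genes Ephb1, Ephb2, Ephb3, Ephb4 and Ephb6, and Epha4, an EphA receptor that also binds B-type ephrins. These 9 genes were chosen by name from the 43346 gene rows of the deposited tables, and all 9 were found. Total RNA was sequenced in 2 libraries that form a single group of healthy, pooled male and female embryos of strain B6NCrl. Each library was made from 10 ng of RNA longer than 200 nt, extracted with mirVana. The libraries are numbered as biological replicates with separate biosamples but carry the same donor identifier, so the spread between them may be partly technical. No treatment, genotype or second tissue was measured, so the results are levels in this tissue with the spread between the replicates, and no p-value is given.

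Ephrins and Eph receptors signal between touching cells. B-type ephrins span the membrane, so binding starts forward signalling through the receptor's tyrosine kinase and reverse signalling through the ephrin's own cytoplasmic tail, and the exchange sorts cells and keeps tissue boundaries. In the face, loss of EFNB1, an X-linked gene, causes craniofrontonasal syndrome in humans, and mice that lack Efnb1, or Ephb2 together with Ephb3, have cleft palate. Efnb2 and Ephb4 are known for marking arterial and venous endothelium, and Efnb3 and Epha4 for guiding axons in the nervous system.

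Reverse signalling runs through a short, conserved tail, and the coding sequence of that end is shown for the 3 ligands because it is the end through which they signal. The last 99 coding bases before the stop codon are given 5′ to 3′ from the GENCODE M21 transcripts on GRCm38. Capitals mark the last 3 codons, which encode the end that binds PDZ domain proteins. They lie at chrX:99147426-99147524 on the plus strand for Efnb1, at chr8:8620591-8620689 on the minus strand for Efnb2 and at chr11:69555863-69555961 on the minus strand for Efnb3.
Efnb1: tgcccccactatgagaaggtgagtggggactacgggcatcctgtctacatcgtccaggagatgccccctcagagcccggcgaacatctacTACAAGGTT
Efnb2: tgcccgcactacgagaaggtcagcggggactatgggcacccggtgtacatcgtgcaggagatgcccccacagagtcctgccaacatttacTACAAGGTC
Efnb3: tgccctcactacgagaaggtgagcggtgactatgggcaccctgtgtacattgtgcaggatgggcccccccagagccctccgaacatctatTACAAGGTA
The Efnb1 and Efnb2 stretches shared 84 of 99 bases and encoded the same residue at 33 of 33 codons, although only 18 of those codons were spelled alike. Efnb3 encoded the same residue as Efnb1 at 30 of 33 codons and as Efnb2 at 30 of 33. The 3 capitalised codons encoded the same 3 residues in all 3 genes.

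Forward signalling runs through the receptor's kinase, and 1 of the 6 receptor genes lacks the motif of it that was compared here. The 45 bases shown for each receptor surround the codons of the Asp-Phe-Gly motif, which in active kinases holds the magnesium ion that positions ATP. Capitals mark those 3 codons, or in Ephb6 the 3 codons aligned to them. The stretches lie on GRCm38 at chr9:101963968-101964012 (minus strand) for Ephb1, chr4:136659599-136659643 (minus) for Ephb2, chr16:21221420-21221464 (plus) for Ephb3, chr5:137369848-137369892 (plus) for Ephb4 and chr1:77382899-77382943 (minus) for Epha4. The Ephb6 stretch is spliced and spans chr6:41618706-41619236 (plus).
Ephb1: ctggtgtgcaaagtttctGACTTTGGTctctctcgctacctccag
Ephb2: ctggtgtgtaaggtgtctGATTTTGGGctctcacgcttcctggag
Ephb3: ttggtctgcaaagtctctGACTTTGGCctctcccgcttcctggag
Ephb4: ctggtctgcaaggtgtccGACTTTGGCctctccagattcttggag
Epha4: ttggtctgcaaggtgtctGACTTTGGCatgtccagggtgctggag
Ephb6: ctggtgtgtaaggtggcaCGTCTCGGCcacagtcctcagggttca
The motif was found in Ephb1, Ephb2, Ephb3, Ephb4 and Epha4, and not in Ephb6, which is known as a receptor without kinase activity. Over the whole translated coding sequence, Ephb1, Ephb2 and Ephb3 were the most alike, with 71.2% to 73.5% identical residues between them. Ephb6 shared 44.4% to 51.0% with the other 5. Ephb4 shared 61.2% with Ephb3, and Epha4 shared at most 60.2% with an EphB receptor.

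The 2 libraries held 30451502 expected counts in replicate 1 and 23777465 in replicate 2 over all rows, of which gene rows took 28542452 and 22719352. Markers of mesenchyme and epithelium were read beside the label, and 5 of 5 mesenchyme and 5 of 5 epithelium markers reached 1 TPM in each library. Their sums were 923 and 1020 TPM in replicate 1 against 906 and 933 TPM in replicate 2. Of 21474 protein-coding genes, 60.9% reached 1 TPM in each library. The endothelium, neuron, skeletal muscle, macrophage and erythroid lists also had 5 of 5 there, so these counts cannot check the label. TPM is a length-corrected abundance scaled to 1000000 per library. Markers of liver stood apart by the size of their difference. Their sums were 3.47 TPM in replicate 1 against 197.68 TPM in replicate 2, with the fibrinogen gene Fgb at 0 in replicate 1. Their direction was shared: 0 of 5 were higher in replicate 1, as for the endothelium, neuron, macrophage, erythroid and heart lists. The 5 heart markers summed to 5.93 TPM in replicate 1 against 28.96 TPM in replicate 2, and the 5 erythroid markers to 3839 and 5859 TPM. The part of these cell types in the differences given below was not tested.

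All 9 genes were expressed. Each was at 1 TPM or more in both libraries, where 60.9% of 21474 protein-coding genes were. The 9 genes had a median of 34.05 TPM, against 4.68 TPM over all protein-coding genes. They spanned more than 10-fold in level: Ephb3, Ephb4 and Epha4 were highest at over 50 TPM on average, and Ephb2 and Ephb1 were lowest, under 10 TPM. Of the 36 pairs of these genes, 33 had separate 95% credibility intervals of TPM in each library, with the same gene higher in both. The other 3 pairs were the 3 combinations of Ephb3, Ephb4 and Epha4. All 18 values lay inside their own deposited interval.

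**Figure D1:**
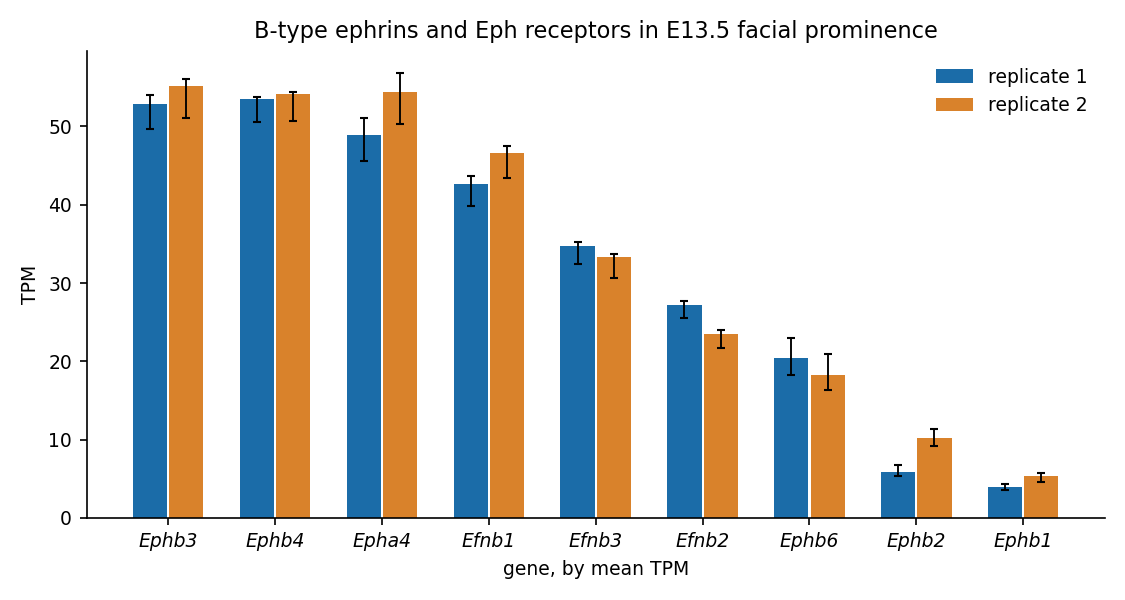
TPM of each gene (bars start at 0) in replicate 1 (blue, left) and replicate 2 (orange, right), ordered by mean TPM, with the deposited 95% credibility interval of each value as error bars. Ephb3, Ephb4 and Epha4 overlap, the 3 ephrin-B genes fall in the middle, and Ephb2 is the gene whose 2 bars differ most in proportion, at 5.84 and 10.14 TPM.

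Among the ligands, Efnb1 was the most abundant. Efnb1 (ENSMUSG00000031217.8, chrX:99136130-99148991, plus strand) was at 42.6 TPM in replicate 1 and 46.6 TPM in replicate 2, or 44.6 ± 2.82 (SD, n = 2), from 2770.0 and 2375 expected counts. Efnb3 (ENSMUSG00000003934.5, chr11:69554092-69560205, minus strand) was at 34.8 and 33.3 TPM (34.05 ± 1.02), from 2268 and 1658 counts. Efnb2 (ENSMUSG00000001300.11, chr8:8617434-8661242, minus strand) was at 27.1 and 23.5 TPM (25.3 ± 2.61), from 2426 and 1599 counts. The order Efnb1, Efnb3, Efnb2 was the same in both libraries, and no interval of a ligand overlapped that of another.

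Efnb1 made up 40.8% of ephrin-B TPM in replicate 1 and 45.1% in replicate 2 (42.9% ± 3.05). Efnb3 held 32.7% ± 0.725 and Efnb2 24.3% ± 2.32. Efnb1 exceeded Efnb2 by 0.65 in replicate 1 and 0.99 in replicate 2 on the log2 scale (0.82 ± 0.24), which is 1.57-fold and 1.99-fold. It exceeded Efnb3 by 0.39 ± 0.13, a ratio under 3 times its own SD between libraries. The log2 ratio of Efnb2 to Efnb3 was -0.43 ± 0.11 in TPM. In expected counts, which are not divided by length, the ratio was 0.02 ± 0.11, with Efnb2 above Efnb3 in replicate 1 and below it in replicate 2.

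Among the receptors, a group of 3 stood at about the same level over all their transcripts. Ephb3 (ENSMUSG00000005958.10, chr16:21204755-21223305, plus strand), which acts with Ephb2 in palate closure in mice, was at 52.8 TPM in replicate 1 and 55.1 TPM in replicate 2 (54.0 ± 1.63), from 4387 and 3460 counts. Ephb4 (ENSMUSG00000029710.11, chr5:137350109-137378669, plus strand), the main receptor of ephrin-B2 on veins, was at 53.45 and 54.2 TPM (53.8 ± 0.53), from 4680 and 3564 counts. Epha4 (ENSMUSG00000026235.10, chr1:77367185-77515088, minus strand) was at 48.9 and 54.4 TPM (51.7 ± 3.89), from 5282 and 4559 counts. The log2 ratio of Ephb3 to Ephb4 was -0.02 in replicate 1 and 0.02 in replicate 2, and that of Epha4 to Ephb3 was -0.11 and -0.02. These differences lay within the credibility intervals of each library. In expected counts, not divided by length, Epha4 was the highest of the 3 in both libraries.

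Ephb6 came next among the receptors. Ephb6 (ENSMUSG00000029869.7, chr6:41605482-41620509, plus strand) was at 20.5 TPM in replicate 1 and 18.3 TPM in replicate 2 (19.4 ± 1.53), from 1293 and 944 counts. The kinase-deficient receptor thus exceeded Ephb1 in TPM by 2.08 ± 0.40 on the log2 scale, or 5.14-fold in replicate 1 and 3.46-fold in replicate 2. It also exceeded Ephb2, 3.50-fold in replicate 1 and 1.80-fold in replicate 2, a log2 ratio of 1.33 ± 0.68 that is under 3 times its SD. In expected counts, not divided by length, the log2 ratio of Ephb6 to Ephb2 was 0.29 ± 0.35, smaller than its SD.

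Ephb2 and Ephb1 were the least abundant of the 9. Ephb2 (ENSMUSG00000028664.10, chr4:136647539-136835988, minus strand) was at 5.84 TPM in replicate 1 and 10.14 TPM in replicate 2 (7.99 ± 3.04), from 891 and 918 counts. Ephb1 (ENSMUSG00000032537.10, chr9:101922128-102354693, minus strand) was at 3.98 and 5.29 TPM (4.64 ± 0.926), from 376 and 363 counts. Both were lower in replicate 1, and their intervals did not overlap in either library. Of the pair that closes the mouse palate together, Ephb2 was far below Ephb3, at a log2 ratio of -3.18 in replicate 1 and -2.44 in replicate 2 (-2.81 ± 0.52). The log2 ratio of Ephb2 to its closest relative Ephb1 was 0.75 ± 0.27, under 3 times its SD between libraries.

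Over all transcripts, receptor TPM was therefore spread evenly over 3 genes and thinly over the rest. Ephb3 made up 28.2% ± 0.399 of the summed TPM of the 6 receptors, Ephb4 28.1% ± 0.968 and Epha4 26.97% ± 0.837. Ephb6 made up 10.1% ± 1.3, Ephb2 4.14% ± 1.40 and Ephb1 2.41% ± 0.377. The ligands summed to 104.54 TPM in replicate 1 and 103.4 TPM in replicate 2, and the receptors to 185.5 and 197.49 TPM. The log2 ratio of ligands to receptors was -0.83 and -0.93 (-0.88 ± 0.08), so the receptors' sum was 1.77 times that of the ligands in replicate 1 and 1.91 times in replicate 2. Without Epha4 this log2 ratio was -0.43. The sums weigh transcripts alike, whichever cells they come from. In this bulk tissue fewer cells of a type and less RNA per cell cannot be told apart, and whether a ligand and its receptor are in neighbouring cells was not measured.

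The arterial and venous pair differed in level. Ephb4 exceeded Efnb2 in TPM 1.97-fold in replicate 1 and 2.31-fold in replicate 2, or by 1.09 ± 0.16 on the log2 scale. Beside them, 5 of 5 endothelium markers reached 1 TPM in each library, with sums of 129 TPM in replicate 1 against 144 TPM in replicate 2. Of the 5 arterial markers 4 did, with sums of 24.7 and 28.9 TPM. The exception was Bmx, a tyrosine kinase gene, at 0.24 and 0.17 TPM. Efnb2 was higher in replicate 1 and the endothelium markers were lower there in 5 of 5 cases, in TPM. The arterial markers split, with 2 of 5 higher in replicate 1: Gja5, at 7.55 against 6.88 TPM, and Bmx. Of the 13078 protein-coding genes at 1 TPM or more in both, 63.98% were lower in replicate 1 in TPM, so most genes leaned that way. The part of endothelial cells in the levels of Ephb4 and Efnb2 was not tested.

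Across the whole family of 22 ephrin and Eph genes, B-type genes and Epha4 were spread from the 2nd to the 18th place. The highest gene was the A-type ligand gene Efna5, which encodes a membrane-anchored ephrin, at 82.1 TPM in replicate 1 and 91.4 TPM in replicate 2. Ephb3, Ephb4 and Epha4 followed it, and Epha3 came after them at 47.1 ± 2.50 TPM. B-type genes held 36.05% of ephrin TPM in replicate 1 and 33.0% in replicate 2. The 6 receptors described here held 63.2% and 64.8% of Eph receptor TPM, and Epha4 alone held 32.4% ± 1.71 of EphA receptor TPM.

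**Figure D2:**
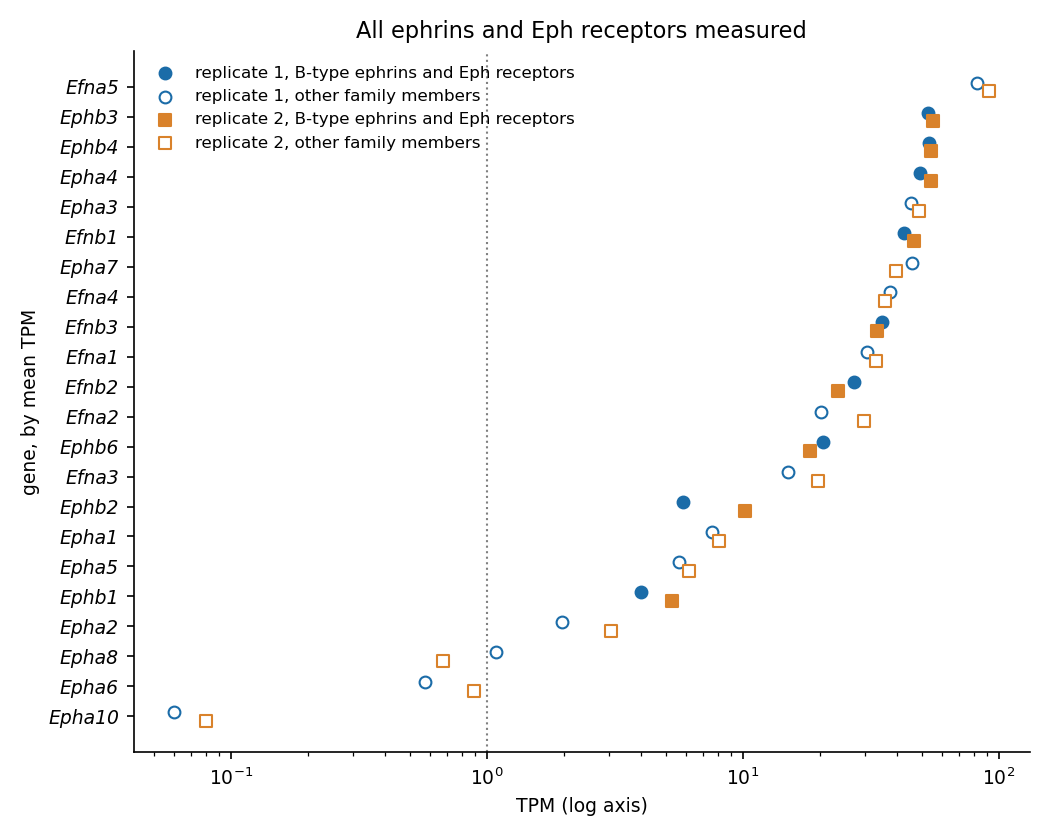
TPM (log axis) of the 22 ephrin and Eph receptor genes in replicate 1 (circles) and replicate 2 (squares), ordered by mean TPM; filled symbols are the 9 genes described here, open symbols the other family members, and the dotted line is 1 TPM. The 9 filled genes lie between 3.98 and 55.1 TPM, and the symbols left of the line are all open: Epha6 and Epha10 in both libraries and Epha8 in replicate 2.

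Between the libraries, 0 of the 9 genes differed by 1.5-fold or more in expected counts scaled with TMM, a method that centres the libraries on the bulk of the genes. Among 12730 gene rows with a mean count of 100 or more, 3.18% did. The median over those rows was 0.03 on the log2 scale of replicate 1 over replicate 2, the value against which the ratios below are read. Efnb2 had the largest positive log2 ratio, 0.31, with an exact Clopper-Pearson 95% interval of 0.22 to 0.40 that covers counting error only. Efnb3 was at 0.16 (0.07 to 0.25) and Ephb6 at 0.16 (0.04 to 0.29). Ephb4 was at 0.10 (0.04 to 0.16) and Ephb3 at 0.05 (-0.01 to 0.12). Those 5 were higher in replicate 1 on this scale and above the median of 0.03. The interval of Ephb3 holds both 0 and that median, and those of Ephb4 and Ephb6 start just above the median. In TPM the ratios of Ephb3 and Ephb4 were -0.06 and -0.02 instead. Scaling by spike-in rows put the median of those rows at -0.53 and made the ratios of all 9 genes negative, from -0.89 for Ephb2 to -0.25 for Efnb2.

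Efnb1, Epha4, Ephb1 and Ephb2 had negative log2 ratios. They were -0.07 for Efnb1 (-0.15 to 0.01), -0.08 for Epha4 (-0.14 to -0.02), -0.24 for Ephb1 (-0.45 to -0.03) and -0.33 for Ephb2 (-0.47 to -0.20). In TPM, where 63.98% of the detected protein-coding genes were lower in replicate 1, neuron markers were lower there in 5 of 5 cases, with sums of 177 TPM in replicate 1 against 213 TPM in replicate 2. Glia markers were lower in 4 of 5, with sums of 37.1 and 50.1 TPM. Forebrain markers reached 1 TPM in each library in 2 of 5 cases, with sums of 20.3 and 22.9 TPM. Their part in the lower values of Ephb1 and Ephb2 in replicate 1 was not tested.

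Ephb2 was the gene whose difference depended most on the measure. In TPM it was 1.74-fold lower in replicate 1 than in replicate 2 (log2 -0.80), past 1.5-fold, while its scaled counts were 1.26-fold lower (log2 -0.33). The effective length by which its counts were divided was 7216 nt in replicate 1 and 5615 nt in replicate 2. A difference in length of that size was found in 1.12% of the 12730 gene rows. For Efnb2 and Efnb3 the effective lengths were the same in both libraries.

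**Figure D3:**
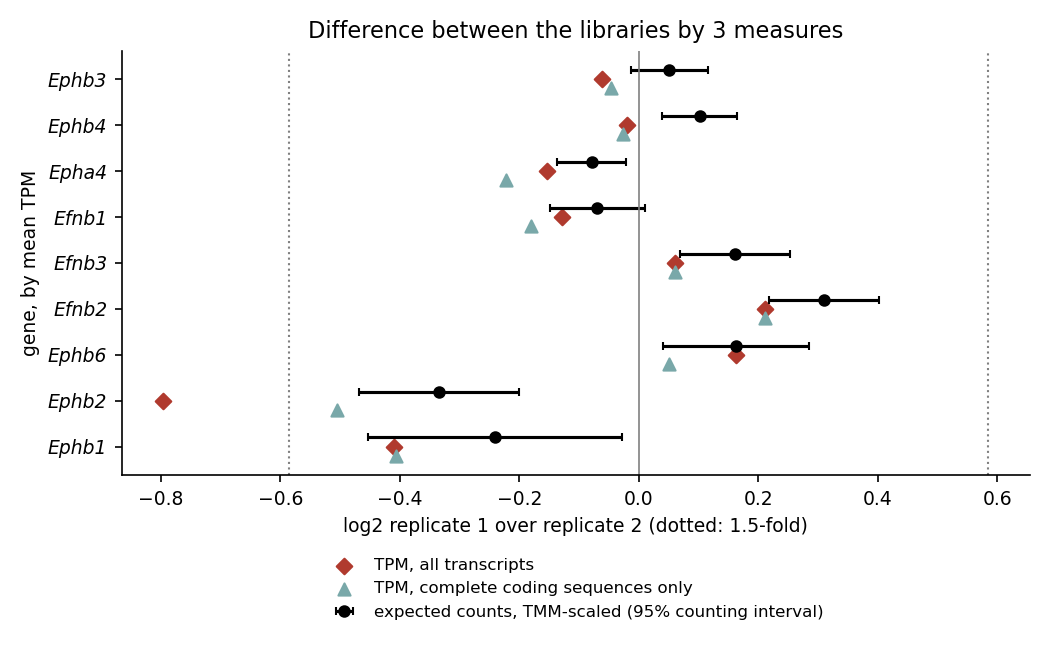
Log2 ratio of replicate 1 over replicate 2 for each gene, ordered by mean TPM, from expected counts scaled with TMM (black circles, 95% counting intervals), from TPM over all transcripts (red diamonds) and from TPM over transcripts with a complete coding sequence (green triangles). Dotted lines mark 1.5-fold; the TPM of Ephb2, at -0.80, is the 1 value outside them.

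Effective length is an average over a gene's transcripts, so the shares of those transcripts were compared. Of the 8 genes with more than 1 annotated transcript, 7 were led by 1 and the same transcript in each library, and Ephb2 was the exception. Of the 7 such genes that reached 5 TPM in each library, which leaves out Ephb1, 6 were, against 91.7% of 7955 genes at that level. Ephb2-202, a transcript of 10902 nt with 7783 bases after its coding sequence, held 49.0% of the gene's TPM in replicate 1 and 28.9% in replicate 2. Ephb2-201, of 4804 nt with 1714 bases after a coding sequence that is 3 bases longer, held 30.0% and 35.6%. The retained-intron transcript Ephb2-204 held 21.1% and 33.1%, from 62.9 and 131 counts. By expected counts Ephb2-202 led in both libraries, with 654 in replicate 1 and 510 in replicate 2.

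Counting only protein-coding transcripts with a complete coding sequence, an alternative added after the data were seen, lowered the levels of Ephb2, Epha4 and Ephb6 by the largest proportions among the 9 genes. Ephb2 was then at 4.61 TPM in replicate 1 and 6.54 TPM in replicate 2, a 1.42-fold difference. Ephb6 was at 16.3 and 15.7 TPM, against 20.5 and 18.3 TPM over all its transcripts. The 459-nt transcript Ephb6-203, which has 140 coding bases and no complete coding sequence, had held 20.4% and 14.0% of Ephb6 TPM from 31.9 and 14.9 counts. Epha4 was at 35.5 and 41.4 TPM, below Efnb1 in both libraries, where it had been above over all transcripts. It was then also below Ephb3, at 48.7 and 50.35 TPM, and Ephb4, at 53.2 and 54.2 TPM. The near-equal level of these 3 receptors thus held only over all transcripts. Partial Epha4-203 had held 11.1% and 12.03% of Epha4 TPM and the retained-intron transcript Epha4-206 10.4% and 9.83%.

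Other receptors mixed complete transcripts. Ephb4-201 held 67.5% of Ephb4 TPM in replicate 1 and 57.0% in replicate 2, and Ephb4-202, whose coding sequence of 2808 bases is shorter than the 2964 of Ephb4-201, held 16.8% and 28.4%. Ephb4-203 held 15.4% and 14.5%. For Ephb1, Ephb1-201 held 84.0% and 53.7% and Ephb1-202 13.3% and 38.0%, on totals of 376 and 363 counts. Ephb3-201 carried 91.1% of Ephb3 TPM in replicate 1 and 90.4% in replicate 2. The ligands were simple: Efnb2-201 and Efnb3-201 carried all of their gene's TPM in both libraries, and Efnb1-201 carried 96.5% in replicate 1 and 100% in replicate 2.

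**Figure D4:**
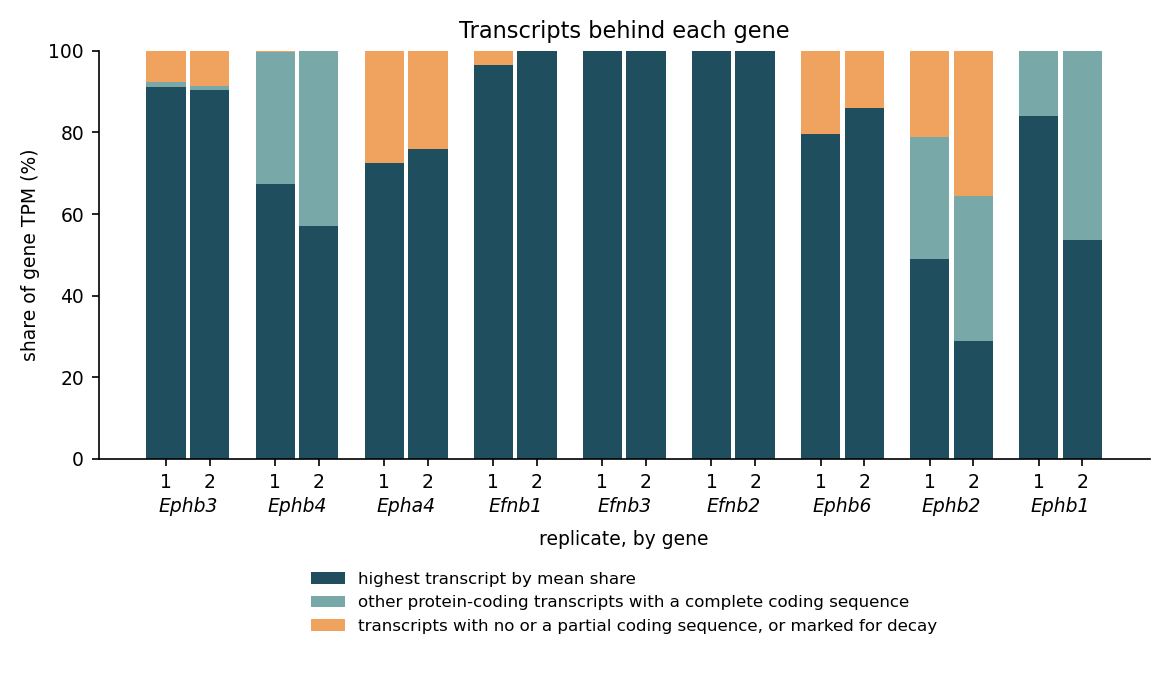
Share of each gene's TPM (%) in replicate 1 (left bar) and replicate 2 (right bar) held by the transcript with the highest mean share (dark), by other protein-coding transcripts with a complete coding sequence (light) and by all others (orange). Efnb2 and Efnb3 are dark throughout, the dark part of Ephb2 is 49.0% and 28.9%, and that of Ephb1 is 84.0% and 53.7%.

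Other genes of the pathway were expressed as well. Lists of A-type family members, tail partners, kinase effectors and cleaving enzymes held 56 genes, of which 51 reached 1 TPM in each library. Beside them, 60.9% of 21474 protein-coding genes did. Of the 5 A-type ligands 5 did, with a median of 31.9 TPM. After Efna5 came Efna4 at 36.7 ± 1.35 and Efna1 at 31.9 ± 1.81 TPM, and Efna3 was lowest at 17.3 ± 3.20 TPM. Of the 8 other EphA receptors 5 did, with a median of 4.19 TPM. Epha3 was followed by Epha7 at 42.6 ± 4.24 and Epha1 at 7.82 ± 0.339 TPM, and Epha10 was lowest at 0.06 TPM in replicate 1 and 0.08 TPM in replicate 2.

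Partners of the ephrin-B tail were detected in 16 of 17 cases, with a median of 27.2 TPM. Detected here means 1 TPM in each library, which 60.9% of all protein-coding genes reached. The PDZ protein gene Sdcbp, which encodes syntenin, was highest at 202 TPM in replicate 1 and 235 TPM in replicate 2. It was followed by Pard6g, a cell polarity gene, at 75.0 ± 0.0495 TPM and by the adaptor gene Nck1 at 54.5 ± 3.45 TPM. The PDZ scaffold gene Grip2 was lowest at 0.52 and 0.42 TPM. Effectors of the receptors were detected in 19 of 20 cases, with a median of 17.0 TPM. The adaptor genes Grb10, Crk and Grb2 led at 357 ± 35.9, 98.4 ± 8.73 and 68.2 ± 15.1 TPM. The exchange factor gene Ngef, which encodes ephexin, was lowest at 0.80 and 0.92 TPM. All 6 genes for cleavage of ephrins and Ephs were detected, with a median of 48.9 TPM. The gamma-secretase genes Psenen and Ncstn were highest at 104.5 ± 2.58 and 79.6 ± 0.445 TPM, Adam10, which encodes a protease that sheds ephrins, was at 50.1 ± 6.19 TPM, and the presenilin gene Psen2 was lowest at 7.94 ± 1.21 TPM.

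**Figure D5:**
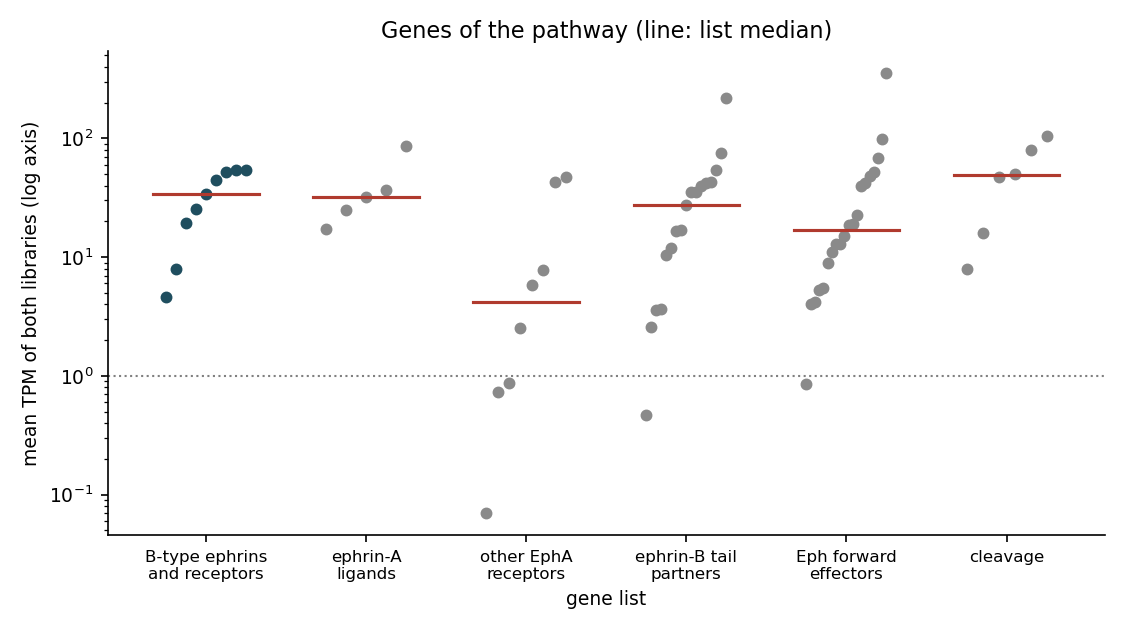
Mean TPM of both libraries (log axis) for the 9 B-type ephrins and Eph receptors (dark, left) and for the genes of 5 pathway lists (grey), each sorted from low to high; red lines are list medians and the dotted line is 1 TPM. The 9 genes lie wholly above the line with a median of 34.05 TPM, and the other EphA receptors have the lowest median, 4.19 TPM.

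The CG dinucleotides of promoters, which the choice of genes did not use, were counted for these genes. RefSeq promoters of GRCm38.p6, each 300 bases around a gene's start, were matched for 8 of the 9 genes, all but Efnb3. They held 14 to 35 CG dinucleotides, where the median over 32851 promoters was 7. Efnb2 had 35, Ephb6 34, Ephb2 24, Ephb3 23 and Epha4 17, and Efnb1, Ephb1 and Ephb4 had 14 each. Of all promoters, 63.7% held fewer than 14, so a count of 14 is not particular to these genes. Promoters of expressed genes alone were not compared. The count did not follow level: Ephb4, among the highest in TPM, and Ephb1, the lowest, had the same number.

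Reads of overlapping genes are a limit for some of these values, because no source used here gives the strandedness of the libraries. The gene Zan overlaps Ephb4 on the opposite strand by 33 bases and had 15 and 10 counts. The largest overlapping gene counts within Ephb1 were 34.1 in replicate 1 and 20.1 in replicate 2, for Gm26846 on the opposite strand. Those stand beside the 376 and 363 counts of Ephb1. Inside Efnb2, on the same strand, M21 annotates E230020D15Rik over 5899 bases, Gm45073 over 4247 and Gm45074 over 1240, which were not analysed here.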

How the data were processed

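Total RNA-seq tables of 2 libraries (replicates 1 and 2 of 1 group, per the labels) were used as deposited. The authors' expected counts are estimated reads per gene or transcript. The deposited TPM is scaled to 1000000 over all rows, and the deposited FPKM is scaled by effective length and library total, per the file headers. Upper limits of the credibility interval, as deposited, are signal values in TPM whose total is not fixed. The deposited isoform percent gives a transcript's share of its gene. Assembly mm10 and annotation GENCODE M4 are named in the deposited notes, and the aligner and quantifier are not given in the sources used here.

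Symbols, transcripts and coordinates came from GENCODE M21 (GRCm38) by identifier without version, and 33 of 34 transcripts of the 9 genes had the deposited length there. The exception, Efnb2-201, is 4324 nt in the deposited tables and 4793 nt in M21. Translation was used only to compare sequences. Number-only and phiX rows (0.000171% of counts in replicate 1, 0.000151% in replicate 2) and spike-in rows (6.27% and 4.45%) stayed out of library sizes. Spike-in rows took 13.4% and 9.68% of TPM, which lowers gene TPM, and by more in replicate 1.

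Expected counts were rounded for edgeR 4.0.16 and DESeq2 1.42.0 (R 4.3.3), and log2 ratios used TMM and a prior count of 1. Intervals came from scipy 1.17.1 in Python 3.11.15. Without molecular identifiers reads may repeat a molecule, so intervals cover counting error only. At these depths 3 counts, the limit that a count of 0 allows, correspond to 0.105 and 0.132 CPM. The ratio step was tested on simulated libraries that differed only by counting error and planted fold changes. That test does not cover other spread between real libraries. The 9 genes, the gene lists, the 14 named pairs and the alternatives were chosen with earlier results of these data known. From each pathway list the 3 highest genes and the lowest by mean TPM were named. Not every named pair is printed.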

Additional observations from a re-analysis of the deposited data

How the results depend on the processing

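All 9 genes reached 1 TPM in each library, and 9 did also with 0.5 TPM, FPKM, posterior mean TPM, TPM rescaled without spike-in rows or either library alone. At 5 TPM 8 did and at 10 TPM 7 did. The 33 pairs called apart became 29 with a mean log2 ratio above 3 SD, 25 with 1.5-fold in TPM and 28 with 1.5-fold in counts. Past 1.5-fold between libraries were 0 genes with TMM, library size or DESeq2 size factors, 1 with the ratio of TPM, and 4 when counts were scaled by spike-in rows. The spike-in scaling puts the median of all genes at -0.53 (log2), against 0.03 with TMM, and relative to that median, an alternative added after the data were seen, 0 were. At the lower fold threshold tried, 1 was. With TPM of complete coding sequences, also added later, 0 were. The Efnb1 share was 39.6% in counts. The log2 ratio of ligands to receptors was -1.24 in counts, -0.73 without Ephb6, -0.43 without Epha4 and -0.70 with complete coding sequences. The log2 ratio of Efnb2 to Efnb3 was 0.022 in counts. Counts are not divided by length. By counts the leading transcript was the same in 8 genes. Of the 14 named pairs, 11 others moved in counts. Among them the 3 pairs of Ephb3, Ephb4 and Epha4, not apart in TPM, changed sign, to -0.07 for Ephb3 to Ephb4, -0.26 for Ephb4 to Epha4 and 0.33 for Epha4 to Ephb3. At 5 TPM 45 of the 56 pathway genes were detected and at 0.5 TPM 54. No paired analysis was possible because there is only 1 group. With 2 libraries an SD is imprecise. Without replicate 1 or without replicate 2, 9 genes were detected, 33 pairs were apart, and 51 or 52 pathway genes were detected. Counts between libraries and the shared leading transcript need both.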
